A study of Mus musculus with 4 samples.

Results

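The miR-30 family was followed through both arms of its hairpins in exosomes of the small intestine (SI) epithelium and of serum. Its members were chosen by name as 7 mature miRNAs, of which 5 are 5p arms (mmu-miR-30a-5p, mmu-miR-30b-5p, mmu-miR-30c-5p, mmu-miR-30d-5p and mmu-miR-30e-5p) and 2 are 3p arms (mmu-miR-30a-3p and mmu-miR-30e-3p). Each of the 7 was listed for both kinds of exosome, where SI-Exos had 373 miRNAs and serum exosomes 611, or 668 names in all.

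Small RNA was sequenced from exosomes of male C57BL/6J mice on standard chow at 3 months (young) and 18 months (aged), with no treatment or genetic change named in the labels. Exosomes of SI epithelium (3m-SI-Exos and 18m-SI-Exos) and of serum were isolated by ultracentrifugation, and the comparison addressed how the miRNA load of both kinds of exosome differs with age. Each of the 4 groups was 1 RNA sample and 1 library, and the sources used here do not say how many mice went into it. Without replicates no test between ages or sources was possible, so every difference below compares libraries rather than conditions, and each interval is an exact 95% interval for counting error only.

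The miRNA reads numbered 212215 in 3m-SI-Exos, 71353 in 18m-SI-Exos, 832002 in serum exosomes at 3 months and 778237 in serum exosomes at 18 months. Levels are CPM, the reads of a miRNA scaled to the summed miRNA reads of its library, so that 1 read was worth 4.71, 14.0, 1.20 and 1.28 CPM, respectively. In miRNA reads the 18m-SI-Exos library was thus the shallowest. MiRNA reads made up 1.14%, 0.411%, 5.89% and 5.31% of the library totals implied by the authors' RPM, in the same order. Of 8 miRNAs typical of intestinal epithelium, all had reads in 3m-SI-Exos and 7 in 18m-SI-Exos, where miR-200b-3p was at 0, and their sum was 26.7% and 8.26% of miRNA reads, against 1.68% and 0.660% in serum exosomes at 3 and 18 months. In serum exosomes most of these reads were miR-192-5p, with 13184 of 14019 at 3 months and 3216 of 5139 at 18 months. Red blood cell miRNAs (5 listed, led by miR-451a) summed to 0.632% and 3.79% in SI-Exos, against 22.0% and 54.0% in serum, with miR-144-5p at 0 in 3m-SI-Exos. The liver miRNA miR-122-5p was at most 0.0350% in SI-Exos but 38.4% and 2.65% in serum exosomes at 3 and 18 months. Myeloid and platelet miRNAs (3 listed, with miR-142a-5p at 0 in 3m-SI-Exos) stayed between 0.00377% and 0.301%, and muscle miRNAs (3 listed, all with reads) between 0.151% and 0.727%. What part these shifts had in the differences of the miR-30 members was not tested.

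A miRNA hairpin is cut by Drosha and Dicer into a duplex of a 5p and a 3p strand, of which one is usually kept by an Argonaute protein and the other degraded. The kept strand finds its targets mainly through its seed, the bases near its 5′ end, so the arms of one hairpin address different messenger RNAs. In the miR-30 family the 5p strands share 1 seed and are widely expressed in epithelia, where they have been studied in cell proliferation, differentiation and autophagy. The 3p strands carry other seeds and are described less often.

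RefSeq gave mature sequences for 5 of the 7 members on GRCm38.p6, and they are shown because the arms that differed most between libraries differ by a base outside the seed. Capitals mark the seed (bases 2 to 8 from the 5′ end).
miR-30a-5p: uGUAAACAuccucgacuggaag
miR-30e-5p: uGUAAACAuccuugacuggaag
miR-30c-5p: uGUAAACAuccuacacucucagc
miR-30a-3p: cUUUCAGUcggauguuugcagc
miR-30e-3p: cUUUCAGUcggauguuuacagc
Counted from 1 at the 5′ end, miR-30a-5p and miR-30e-5p differed only by C13U, and miR-30a-3p and miR-30e-3p only by G18A. No source used here says how the authors assigned reads that match such pairs. In both genes the arms lie in the hairpin as follows, with the 5p and then the 3p arm in capitals.
Mir30a: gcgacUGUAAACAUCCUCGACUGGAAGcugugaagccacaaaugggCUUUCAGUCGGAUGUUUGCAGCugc
Mir30e: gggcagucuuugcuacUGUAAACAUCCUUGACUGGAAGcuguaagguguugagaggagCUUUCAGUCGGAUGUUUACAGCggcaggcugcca

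Mir30a lies at chr1:23272269-23272339 on the plus strand, outside other annotated genes, and Mir30c-2 follows on the same strand at chr1:23291701-23291784, in an exon of the long noncoding RNA gene Gm27028. Mir30e (chr4:120772606-120772697) and Mir30c-1 (chr4:120769534-120769622) both lie on the minus strand in an intron of Nfyc, which encodes a subunit of the transcription factor NF-Y, with 2983 bases between them. Mature miR-30c-5p is the same from Mir30c-1 and Mir30c-2, so its reads cannot be given to either gene.

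The 3p strand of the miR-30e hairpin was the most abundant miRNA of 18m-SI-Exos. MiR-30e-3p had 2915 reads in 3m-SI-Exos, 14135 reads in 18m-SI-Exos, 58 reads in serum exosomes at 3 months and 55 reads in serum exosomes at 18 months. These counts correspond to 13736 CPM, 198100 CPM, 69.7 CPM and 70.7 CPM, so that the SI libraries stood far above both serum libraries. It took 19.8% (95% interval 19.5 to 20.1) of the miRNA reads of 18m-SI-Exos and held rank 1 there, compared with 1.37% (1.32 to 1.42) and rank 16 in 3m-SI-Exos. The level in 18m-SI-Exos was 14.4-fold (13.9 to 15.0) that in 3m-SI-Exos, whereas both serum libraries differed by less than counting error (ratio of 3 over 18 months 0.986, interval 0.670 to 1.45). Of 214 ratios of 3 over 18 months in SI-Exos, that of miR-30e-3p was at place 17 from the lowest. MiR-30e-3p was 197-fold (152 to 260) higher in SI-Exos than in serum exosomes at 3 months and 2803-fold (2152 to 3723) higher at 18 months. Direction and call held under every scaling tried for these 3 differences. With the authors' RPM, however, whose implied denominator is larger than the miRNA reads, the ratios in the same order were 0.193 (3 over 18 months), 38.2 and 217.

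The other strand of the same duplex was scarce. MiR-30e-5p had 0 reads in 3m-SI-Exos, 23 reads (322 CPM) in 18m-SI-Exos, 15 reads (18.0 CPM) in serum exosomes at 3 months and 18 reads (23.1 CPM) at 18 months. The 18m-SI-Exos library was therefore high, and among the other libraries neighbours in the order of levels did not separate. With 3 reads put in place of the 0 (14.1 CPM in 3m-SI-Exos), miR-30e-5p was 22.8-fold higher in 18m-SI-Exos than in 3m-SI-Exos. The exact lower limit was 17.1-fold. At 18 months it was 13.9-fold (7.20 to 27.4) higher in SI-Exos than in serum exosomes, but with the authors' RPM this ratio was 1.08 and the call was lost. At 3 months the counts of 0 and 15 reads did not separate the sources, although with TMM, DESeq2 size factors, the authors' RPM or without the 5 most abundant miRNAs of the pair miR-30e-5p was called lower in SI-Exos.

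The 3p strand of miR-30a did not follow that of miR-30e, from which it differs by 1 base. MiR-30a-3p had 109 reads (514 CPM) in 3m-SI-Exos, 28 reads (392 CPM) in 18m-SI-Exos, 193 reads (232 CPM) in serum exosomes at 3 months and 155 reads (199 CPM) at 18 months. Neither age pair separated beyond counting error (3 over 18 months: 1.31 with an interval of 0.858 to 2.06 for SI-Exos, and 1.16 with an interval of 0.938 to 1.45 for serum exosomes). The level was 2.21-fold (1.73 to 2.81) higher in SI-Exos than in serum exosomes at 3 months and 1.97-fold (1.27 to 2.96) higher at 18 months, the latter short of the 2-fold limit. This difference depended on the scaling: at 3 months the ratio was 0.996 with TMM and 0.429 with the authors' RPM, and at 18 months 0.875 and 0.152, with the values of the authors' RPM called lower in SI-Exos. With the authors' RPM the ratio of 3 over 18 months in SI-Exos was 3.63 (2.38 to 5.72), a call that CPM did not give.

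**Figure D1:**
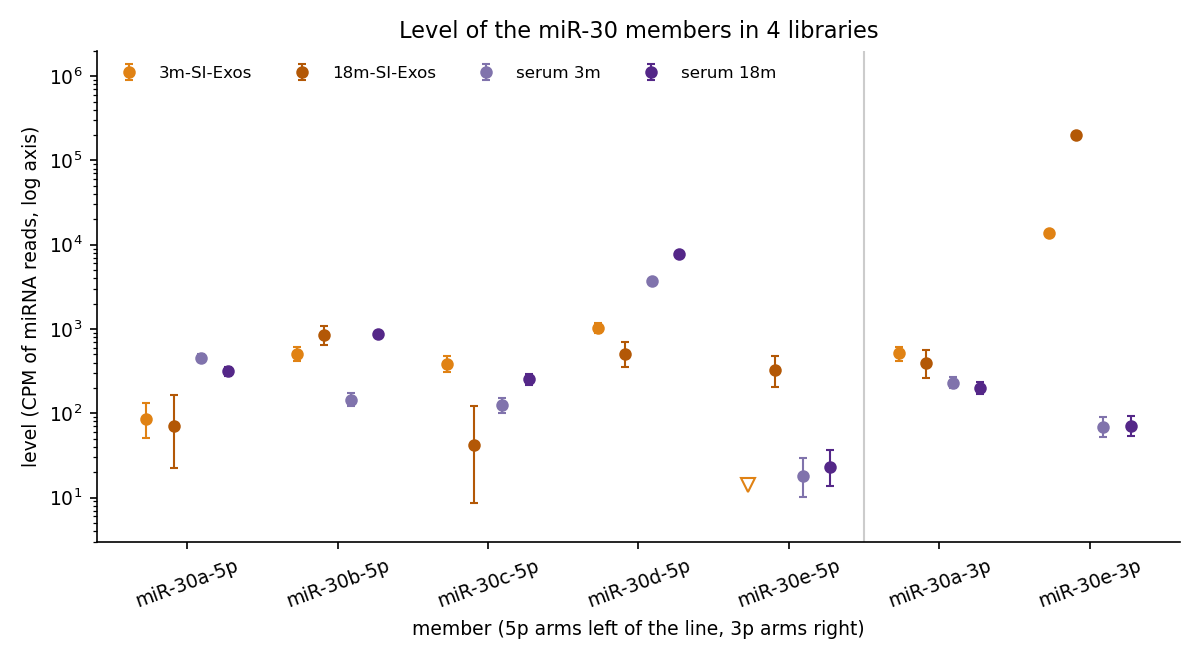
Level of each miR-30 member in CPM of miRNA reads (log axis) in the 4 libraries, with exact 95% counting intervals. The open triangle marks the floor of 3 reads used for the count of 0 of miR-30e-5p in 3m-SI-Exos. MiR-30e-3p reached 198100 CPM in 18m-SI-Exos, and in serum exosomes miR-30d-5p was the highest member at both ages.

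The 3p share of a hairpin's reads depends on no scaling, since both arms come from the same library. In the miR-30a hairpin the 3p arm took 85.8% (78.5 to 91.4) of reads in 3m-SI-Exos and 84.8% (68.1 to 94.9) in 18m-SI-Exos, but 33.8% (29.9 to 37.8) and 38.8% (33.9 to 43.7) in serum exosomes at 3 and 18 months. As the reads were assigned, the dominant strand of miR-30a was thus 3p in both SI libraries and 5p in both serum libraries. The SI shares rest on 109 3p and 18 5p reads at 3 months and on 28 and 5 at 18 months. In the same libraries miR-30e-3p, which differs from miR-30a-3p by 1 base, had 2915 and 14135 reads. Whether any of its reads were counted as miR-30a-3p was not tested. Expressed as the odds ratio of 3p to 5p reads, SI-Exos exceeded serum exosomes 11.9-fold (6.89 to 21.3) at 3 months and 8.85-fold (3.26 to 29.8) at 18 months. Age made no difference beyond counting error in either source, the odds ratio of 3 over 18 months being 1.08 (0.288 to 3.38) for SI-Exos and 0.807 (0.614 to 1.06) for serum.

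In the miR-30e hairpin the 3p arm dominated in every library. There were 2915 3p reads and no 5p read in 3m-SI-Exos, 615 3p reads for each 5p read in 18m-SI-Exos, and 3.87 and 3.06 in serum exosomes at 3 and 18 months. The 3p share was 79.5% (68.4 to 88.0) and 75.3% (63.9 to 84.7) in serum exosomes and at least 99.8% in both SI libraries. The odds of 3p over 5p were 201-fold (95.9 to 412) higher in SI-Exos than in serum exosomes at 18 months, and at 3 months the exact lower limit was 173-fold. Between ages, the odds in 3m-SI-Exos exceeded those in 18m-SI-Exos 1.58-fold with 3 reads in place of the 0. The exact lower limit was 1.18, and serum exosomes did not separate (1.27, interval 0.541 to 2.98).

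Between sources, a higher 3p to 5p ratio in SI-Exos was called for miR-30a and miR-30e at both ages, where a call needs an odds ratio of 2 or more, or a count of 0 that leaves it without a finite value, and an interval that leaves out 1. MiR-30d, whose 3p arm had at most 4 reads, was not called at either age, nor was miR-30b at 18 months. Hairpins with no 3p read, or no 5p read, in either library of a pair gave no odds ratio and were left out. MiR-30b and miR-30c-2 were among these at 3 months, with no 3p read in SI-Exos or serum exosomes. Of the miR-30 hairpins with an odds ratio, 2 of 3 were called at 3 months and 2 of 4 at 18 months. All hairpins with 10 or more reads in both libraries and an odds ratio numbered 79 at 3 months and 64 at 18 months. The same call was made for 13.9% and 15.6% of them, and the opposite call for 26.6% and 15.6%. Between ages, miR-30e was called in SI-Exos only through its count of 0, the value with 3 reads in its place being below 2, and 13.7% of 51 hairpins were called higher at 3 months and 13.7% higher at 18 months. No miR-30 hairpin was called by age in serum exosomes, where 8.74% of 103 hairpins were called higher at 3 months and 7.77% higher at 18 months. Adding up near-identical members (miR-30d-5p and miR-30e-5p with miR-30a-5p, from which each differs by 1 base, and the pair of 3p members) gave odds ratios of 178 and 6641 between sources at 3 and 18 months. The same addition turned the age difference in SI-Exos to 0.0577, the 5p sum then being 237 reads at 3 months and 64 reads at 18 months, of which 219 and 36 came from miR-30d-5p of another hairpin.

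**Figure D2:**
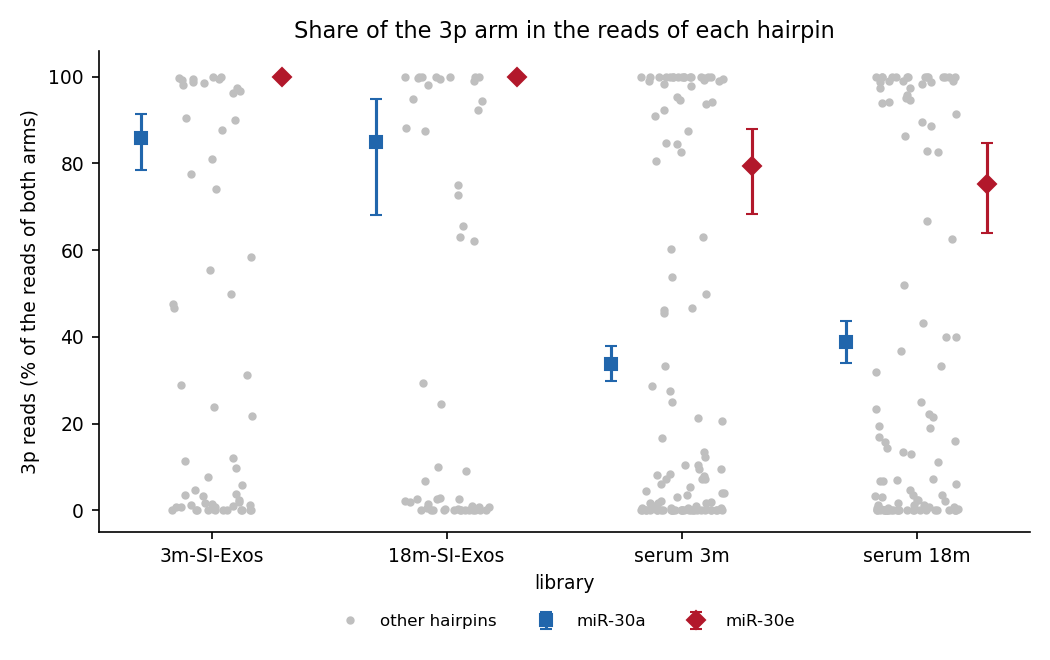
Share of 3p reads (% of the reads of both arms) for each hairpin with both arms listed for the source and 10 or more reads in the library. Blue squares are miR-30a and red diamonds miR-30e, both with exact 95% intervals, and grey points are the other hairpins. MiR-30b, miR-30c-2 and miR-30d are not shown for SI-Exos, where their 3p arms were not listed. MiR-30a moved from 33.8% and 38.8% in serum exosomes to 85.8% and 84.8% in SI-Exos, and miR-30e from 79.5% and 75.3% to 100% and 99.8%.

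Among the 5p strands, miR-30d-5p was the leading member in serum exosomes. Its reads numbered 219 in 3m-SI-Exos, 36 in 18m-SI-Exos, 3113 in serum exosomes at 3 months and 6039 at 18 months, or 1032 CPM, 505 CPM, 3742 CPM and 7760 CPM. All 4 levels were separated beyond counting error, with both serum libraries above both SI libraries. By age, miR-30d-5p was 2.05-fold (1.43 to 3.00) higher in 3m-SI-Exos than in 18m-SI-Exos, and in serum exosomes it was lower at 3 months, at 0.482 (0.462 to 0.504) of the level at 18 months. Both calls lay close to the 2-fold limit. The SI ratio was 1.84 without the 5 most abundant miRNAs of the pair and 1.66 without the members in the total, against 2.15 with TMM, 2.92 with DESeq2 size factors and 5.68 with the authors' RPM, and the serum ratio was between 0.515 and 0.632 with TMM, DESeq2 size factors, the authors' RPM or without the 5 most abundant miRNAs. Between sources the direction held under every scaling tried, with serum exosomes 3.63-fold (3.16 to 4.18) higher at 3 months and 15.4-fold (11.1 to 22.0) higher at 18 months.

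MiR-30a-5p, which shares the hairpin with miR-30a-3p, was also higher in serum exosomes. It had 18 reads (84.8 CPM) in 3m-SI-Exos, 5 reads (70.1 CPM) in 18m-SI-Exos, 378 reads (454 CPM) in serum exosomes at 3 months and 245 reads (315 CPM) at 18 months. The SI libraries were low and did not differ beyond counting error in CPM (1.21, interval 0.433 to 4.17), although with the authors' RPM the ratio of 3 over 18 months was 3.36 (1.20 to 11.6) and was called, and the serum libraries were high. Serum exosomes exceeded SI-Exos 5.36-fold (3.34 to 9.14) at 3 months and 4.49-fold (1.90 to 14.0) at 18 months, and these calls between sources held under every scaling tried. In serum exosomes the ratio of 3 over 18 months was 1.44 (1.23 to 1.70), which left out 1 but did not reach 2-fold.

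MiR-30b-5p was lowest in serum exosomes of young mice. The 4 libraries held 107 reads (504 CPM) in 3m-SI-Exos, 60 reads (841 CPM) in 18m-SI-Exos, 121 reads (145 CPM) in serum exosomes at 3 months and 686 reads (881 CPM) at 18 months. In CPM both aged libraries were the highest, at levels that did not differ beyond counting error, but with the authors' RPM and with TMM the 18-month ratio of SI-Exos over serum exosomes was 0.0738 and 0.424, called lower in both, and 18m-SI-Exos had the lowest of the 4 RPM values. In serum exosomes the level at 18 months was 6.06-fold (4.99 to 7.42) that at 3 months, a call that every scaling kept. In SI-Exos the ratio of 3 over 18 months was 0.600 (0.433 to 0.837), short of the limit, and it became 1.66 with the authors' RPM. At 3 months SI-Exos were 3.47-fold (2.65 to 4.53) above serum exosomes, yet 0.672 with the authors' RPM.

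MiR-30c-5p went opposite ways with age in the pair of sources. Its counts were 82 reads (386 CPM) in 3m-SI-Exos, 3 reads (42.0 CPM) in 18m-SI-Exos, 104 reads (125 CPM) in serum exosomes at 3 months and 196 reads (252 CPM) at 18 months. The highest and the lowest level were both in SI-Exos. The ratio of 3 over 18 months was 9.19 (3.04 to 45.5) in SI-Exos, where every scaling kept the call, and 0.496 (0.387 to 0.633) in serum exosomes, where it was between 0.531 and 0.651 with TMM, DESeq2 size factors, the authors' RPM or without the 5 most abundant miRNAs. Set against serum exosomes, SI-Exos were 3.09-fold (2.29 to 4.17) higher at 3 months, or 0.599 with the authors' RPM, and 5.99-fold (2.02 to 29.3) lower at 18 months. The 3-month call was also lost with TMM (1.39), DESeq2 size factors (1.58) and without the 5 most abundant miRNAs (1.60).

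**Figure D3:**
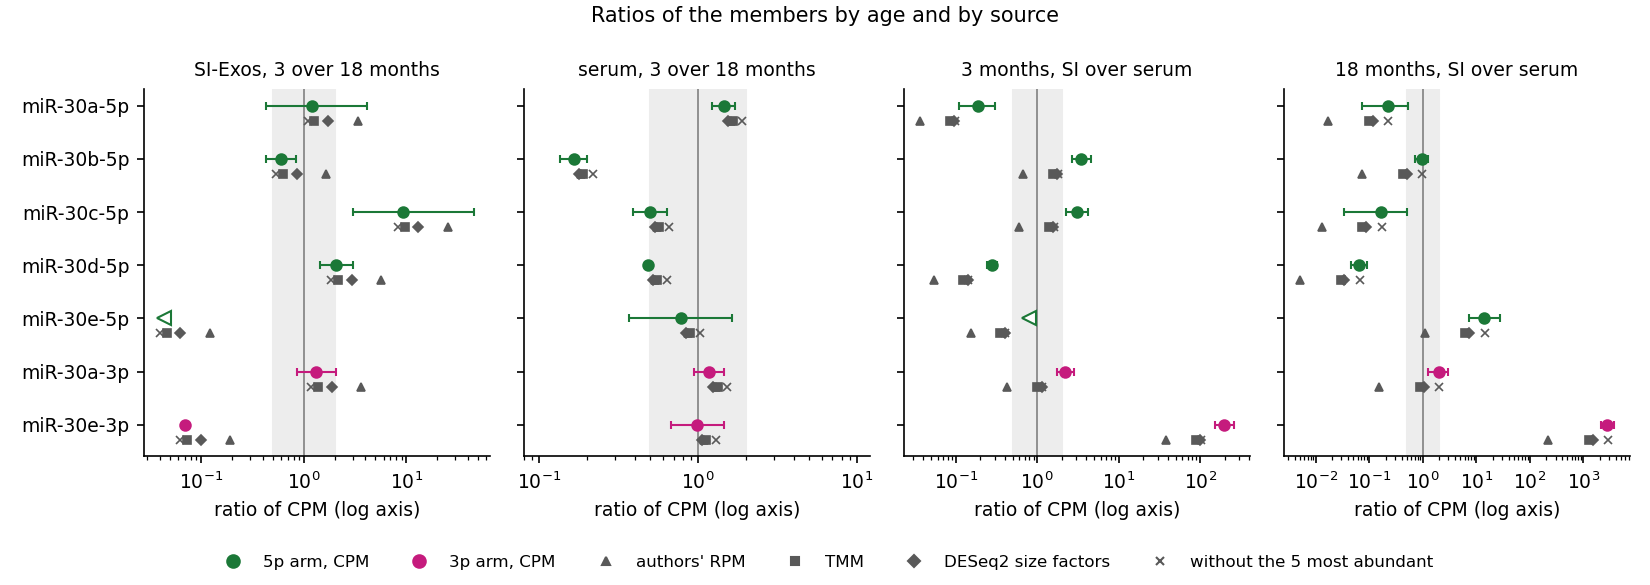
Ratio of each member between libraries on log axes, by age (3 over 18 months, for SI-Exos and for serum) and by source (SI-Exos over serum exosomes, at each age). Coloured points are CPM ratios with exact 95% counting intervals (green 5p, magenta 3p, open triangles with 3 reads in place of 0), small grey marks are other scalings, and the grey band marks ratios below 2-fold; miR-30e-3p in SI-Exos, at 0.0693 by age, 197 and 2803 by source, lay outside the band under every scaling.

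The make-up of the 5p strands, which also depends on no scaling, differed between sources and, in SI-Exos, between ages. MiR-30d-5p gave 83.4% (82.2 to 84.6) and 84.1% (83.2 to 84.9) of the 5p reads in serum exosomes at 3 and 18 months, with overlapping intervals. In 3m-SI-Exos it gave 51.4% (46.5 to 56.2), followed by miR-30b-5p with 25.1% (21.1 to 29.5) and miR-30c-5p with 19.2% (15.6 to 23.3). In 18m-SI-Exos miR-30b-5p led with 47.2% (38.3 to 56.3), ahead of miR-30d-5p with 28.3% (20.7 to 37.0) and miR-30e-5p with 18.1% (11.8 to 25.9), while miR-30c-5p was down to 2.36% (0.490 to 6.75). MiR-30b-5p thus made up a larger share at 18 months in both sources, its share in serum exosomes being 3.24% (2.70 to 3.86) at 3 months and 9.55% (8.88 to 10.3) at 18 months. MiR-30a-5p went from 10.1% (9.18 to 11.1) to 3.41% (3.00 to 3.86) in serum exosomes over the same ages. These shares rest on 426 and 127 5p reads in the SI libraries and on 3731 and 7184 in the serum libraries.

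**Figure D4:**
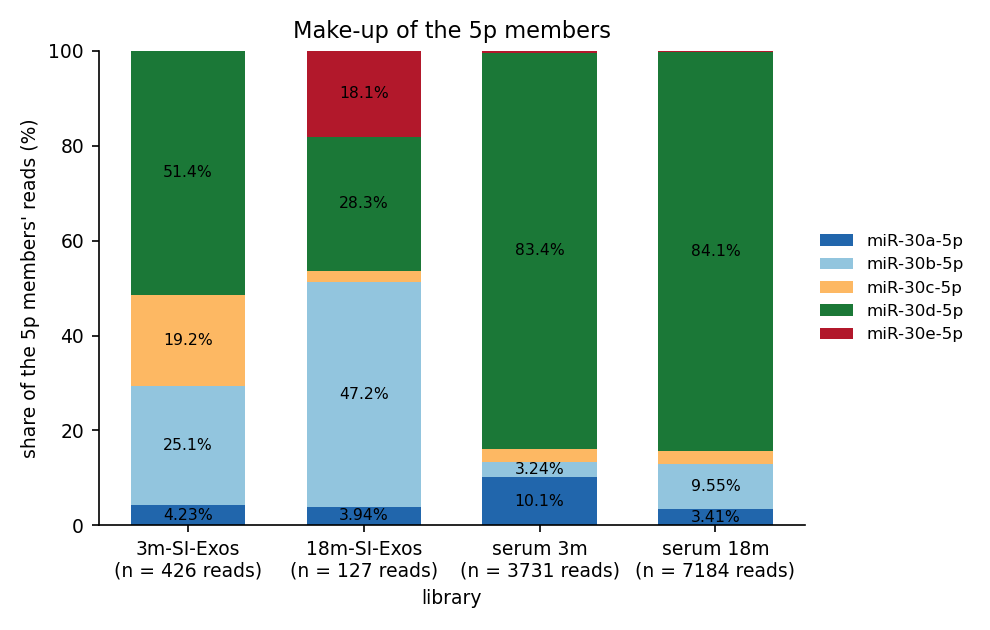
Make-up of the reads of the 5 5p members (% of their sum, bars start at 0) in each library, with the number of reads under each bar; there are no replicates and the intervals stand in the text. MiR-30d-5p filled 83.4% and 84.1% of the serum bars, and the 18m-SI-Exos bar held miR-30b-5p (47.2%), miR-30d-5p (28.3%) and miR-30e-5p (18.1%).

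Summed over each arm, the 5p members stood at 2007 CPM in 3m-SI-Exos, 1780 CPM in 18m-SI-Exos, 4484 CPM in serum exosomes at 3 months and 9231 CPM at 18 months. The sum of the 3p members was 14250 CPM, 198492 CPM, 302 CPM and 270 CPM in the same order. So the 3p members led in SI-Exos, by 7.10 and 112 reads for each 5p read at 3 and 18 months. The 5p members led in serum exosomes, by 14.9 and 34.2 reads for each 3p read. These sums set different hairpins beside each other. MiR-30e-3p gave 96.4% and 99.8% of the 3p reads in SI-Exos at 3 and 18 months. MiR-30d-5p gave 83.4% and 84.1% of the 5p reads in serum exosomes. By age, the 5p sum in SI-Exos did not differ beyond counting error in CPM (1.13, interval 0.923 to 1.39, 3 over 18 months). The 3p sum was 13.9-fold (13.4 to 14.5) higher at 18 months. With the authors' RPM the ratios of 3 over 18 months in SI-Exos were 3.13 for the 5p sum and 0.199 for the 3p sum. In serum exosomes it was the 5p sum that was 2.06-fold (1.98 to 2.14) higher at 18 months, and the 3p sum did not differ beyond counting error (1.12, interval 0.927 to 1.35).

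How many members differed was read against all measured miRNAs of the same libraries. A member was called where its CPM differed 2-fold or more, or had 0 reads in 1 library, with an interval that leaves out 1. In SI-Exos 2 of the 7 members were higher at 3 months (miR-30c-5p and miR-30d-5p) and 2 were higher at 18 months (miR-30e-5p and miR-30e-3p), where 32.7% and 29.4% of 214 measured miRNAs were called in these directions. In serum exosomes none was higher at 3 months and 3 were higher at 18 months (miR-30b-5p, miR-30c-5p and miR-30d-5p), where 18.3% and 25.9% of 251 miRNAs were called. Between sources at 3 months 4 members were higher in SI-Exos and 2 in serum exosomes, against 43.8% and 29.2% of 274 miRNAs. At 18 months 2 members were higher in SI-Exos and 3 in serum exosomes, against 32.8% and 29.8% of 262 miRNAs. Beside these shares the counts show nothing particular to the family. The median log2 ratio of the members, after adding 0.5 reads, was 0.18 in SI-Exos (3 over 18 months), beside 0.45 over all measured miRNAs, and -0.35 beside -0.38 in serum exosomes. With the authors' RPM the ratios of 3 over 18 months in SI-Exos were all 2.78-fold larger, and 131 miRNAs were then called higher at 3 months and 31 at 18 months, instead of 70 and 63 (100 and 50 with DESeq2 size factors). The split between directions also moved in serum exosomes, from 46 higher at 3 months and 65 higher at 18 months to 67 and 38 without the 5 most abundant miRNAs. Between sources, 120 miRNAs higher in SI-Exos and 80 higher in serum exosomes at 3 months became 66 and 156 with the authors' RPM, 95 and 128 with TMM, 98 and 122 with DESeq2 size factors and 98 and 120 without the 5 most abundant. At 18 months 86 and 78 became 48 and 197, 70 and 116, and 74 and 105 with the first 3 of these.

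**Figure D5:**
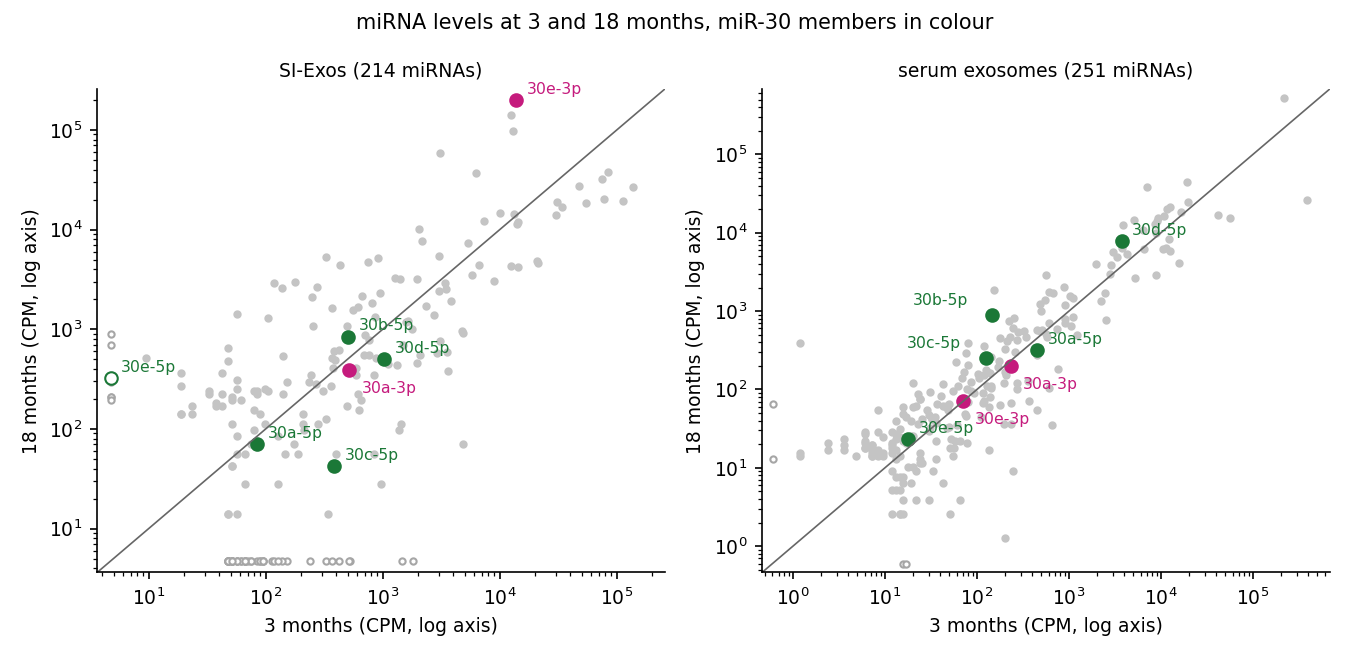
CPM at 3 months (x) against 18 months (y) on log axes for all measured miRNAs of SI-Exos (left, 214) and serum exosomes (right, 251), 1 library per axis, with 5p members in green, 3p members in magenta, and open circles at the edge for a count of 0. MiR-30e-3p was the highest point on the aged axis of SI-Exos, whereas in serum exosomes miR-30b-5p, 6.06-fold higher at 18 months, lay farthest from the diagonal among the members.

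The rest of the family was nearly silent. MiR-30b-3p and miR-30c-2-3p had 1 read each in serum exosomes at 18 months and none elsewhere, and miR-30d-3p had 3 and 4 reads in serum exosomes at 3 and 18 months and none in SI-Exos. So in serum exosomes miR-30d was almost wholly 5p, with 0.0963% and 0.0662% of its reads on the 3p arm. MiR-384-5p, which carries the 5p seed of the family, had 5 reads in 3m-SI-Exos and 3 in serum exosomes at 3 months. A miRNA that the authors predicted from the reads and that carries the seed of miR-30a-3p and miR-30e-3p had 1 and 2 reads in 3m-SI-Exos and 18m-SI-Exos. Neither miR-30c-1-3p nor miR-30f was listed.

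Among 75 known miRNAs with 50 or more reads in both sources, the pattern of miR-30e-3p over the 4 libraries, by the distance of centred log2 CPM, was closest to 3 epithelial miRNAs. MiR-194-5p was at a distance of 3.75, miR-215-5p at 4.50 and miR-429-3p at 5.79, where the median of all was 10.4. These 3 are themselves intestinal markers, and they share with miR-30e-3p a high level in SI-Exos but not the difference by age, miR-194-5p being at 30950 CPM and 19116 CPM in 3m-SI-Exos and 18m-SI-Exos. The minimum of 50 reads in serum exosomes left out closer patterns. Without it, an alternative chosen after seeing the data, the closest of 100 miRNAs were miR-141-5p (0.872), miR-215-3p (1.29) and miR-31-3p (1.61), each with at most 48 reads in a serum library and each higher in 18m-SI-Exos than in 3m-SI-Exos. MiR-30a-5p was closest to miR-1198-5p (0.587), miR-99a-5p (0.785) and miR-148a-3p (0.956), among 76 miRNAs with a median distance of 3.35. All 3 were higher in serum exosomes at 3 months than in any other library, as miR-30a-5p was.

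In 18m-SI-Exos the 3 most abundant miRNAs were all 3p strands. There miR-30e-3p was followed by miR-194-1-3p with 10125 reads (14.2%) and miR-215-3p with 7043 reads (9.87%), and together they made up 43.9% (43.5 to 44.2) of miRNA reads. In 3m-SI-Exos the same 3 strands had 2915, 2665 and 2760 reads and summed to 3.93% (3.85 to 4.01), and in serum exosomes they summed to at most 0.0137%. Like miR-30e-3p, miR-194-1-3p was 11.3-fold (10.8 to 11.8) and miR-215-3p 7.59-fold (7.26 to 7.93) higher at 18 months, whereas their partners miR-194-5p and miR-215-5p were not called (ratio of 3 over 18 months 1.62, interval 1.53 to 1.72, and 0.921, interval 0.857 to 0.991). Ranked by the interval limit nearest to 1, these hairpins were among the 5 whose 3p arm gained most on its 5p arm at 18 months, beside let-7i, miR-328 and miR-31, with odds ratios of 18 over 3 months of 18.3 (17.0 to 19.7) for miR-194-1 and 6.99 (6.42 to 7.61) for miR-215. The miR-30e hairpin was not among them, and its 5p strand was higher at 18 months as well. The 5 hairpins whose 3p arm lost most against its 5p arm by the same limit were miR-301a, miR-141, miR-652, miR-100 and miR-7a-1. For miR-141 the odds of 3p reads were 6.87-fold (4.38 to 10.8) higher at 3 months. Its 3p strand was not called (ratio of 3 over 18 months 0.806, interval 0.597 to 1.10), and its 5p strand was 8.53-fold (6.20 to 11.9) higher at 18 months. Of these 3p strands only miR-7a-1-3p was itself called lower at 18 months, with 72 reads at 3 months and 1 read at 18 months. MiR-301a-3p and miR-100-3p had at most 11 and 7 reads.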

How the data were processed

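Small RNA libraries of SI-Exos and serum exosomes (3 and 18 months, 1 library each) were grouped by GEO's labels. The labels name an MGI Easy Small RNA kit and a DNBSEQ-G400, while the paper's methods name another kit and sequencer. The authors mapped reads (with Bowtie2 2.2.9 on GRCm38, by the submitters' processing notes) and deposited read counts per mature miRNA, with 1 table per source. The authors also deposited RPM, whose totals imply 14129502 to 18606950 reads per library. Their own fold changes, p-values and FDR were not used, and every per-library column was matched to a library (0 left unmatched). How multiply mapped reads and adapters were handled is not stated.

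A miRNA listed in only 1 table was taken as 0 reads in the other, since no row had 0 reads in both libraries. Counts were scaled to CPM of miRNA reads. A miRNA was measured with 10 or more reads in 1 of 2 libraries. Ratios carry exact conditional binomial 95% intervals and arm odds ratios exact conditional intervals (scipy 1.17.1), and shares carry Clopper-Pearson intervals. A ratio against 0 reads used a floor of 3 reads. PCR copies are not independent molecules, so intervals cover counting error only. Functions were checked on simulated counts.

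Named miRNAs were all members, other miR-30 names and seed matches, and the 3 miRNAs most alike to miR-30e-3p and miR-30a-5p. Markers of epithelium, red blood cells, liver, myeloid cells with platelets, and muscle were also named. Hairpins named were the 5 whose 3p arm gained, and the 5 whose 3p arm lost, most against 5p with age in SI-Exos. MiR-194-1-3p and miR-215-3p were named as the arms of such hairpins. The members and lists were chosen with earlier results of these data known. Alternatives were TMM (edgeR 4.0.16), DESeq2 1.42.0 size factors, the authors' RPM, totals without the 5 most abundant miRNAs or without the members, other limits on reads and ratio, known miRNAs alone and added-up near-identical members. Sequences and positions came from RefSeq (GRCm38.p6), and host genes from GENCODE vM21.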

Additional observations from a re-analysis of the deposited data

Results flagged for a closer look

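Members whose differences ran in opposite directions between sources or ages are given here with their values. Neither difference was tested, since each group was 1 library. MiR-30c-5p was 9.19-fold higher in 3m-SI-Exos than in 18m-SI-Exos, and its serum ratio of 3 over 18 months was 0.496. The ratio of both age ratios was 18.5 (exact 95% counting interval 5.84 to 93.0), and it rests on 3 reads in 18m-SI-Exos. The same 4 counts give 18.5 for the source ratio at 3 months over that at 18 months. In CPM SI-Exos were above serum exosomes at 3 months (3.09) and below at 18 months (0.167). The 3-month ratio lost its call with TMM (1.39), DESeq2 size factors (1.58) and without the 5 most abundant miRNAs (1.60). With the authors' RPM it was 0.599, below serum exosomes, while the 18-month call held under every scaling tried. Over all scalings tried, the ratio of the age ratios of miR-30c-5p lay between 12.7 and 46.4.

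MiR-30d-5p was 2.05-fold higher in 3m-SI-Exos than in 18m-SI-Exos, with a serum ratio of 0.482. The ratio of its age ratios was 4.24 (2.96 to 6.23), and between 2.91 and 10.6 over all scalings tried. Both of its age differences are near the 2-fold limit and lose their call under several scalings.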

How the results depend on the processing

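No paired analysis was possible because each group was 1 library and the labels carry no replicate numbers, and for the same reason no replicate could be left out. The 5 5p members rest on 3 to 60 reads each in 18m-SI-Exos. Scaling limits everything but arm ratios and shares: relative to CPM, the log2 ratio of 3 over 18 months in SI-Exos shifted by 1.47 with the authors' RPM, 0.52 with DESeq2 size factors, 0.07 with TMM, -0.15 without the 5 most abundant miRNAs and -0.30 without the members. In serum exosomes the shift was at most 0.39, and between sources it reached -2.37 and -3.69 with the authors' RPM at 3 and 18 months. The cause of the changes below was not tested, beyond what each setting changes by construction.

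In SI-Exos the 2 members higher at 3 months became 4 with the authors' RPM and 1 without the 5 most abundant miRNAs, without the members, at a ratio of 4 or with known miRNAs alone, and the 2 members lower at 3 months became 1 with 50 reads required and 3 without the members or at a ratio of 1.5. In serum exosomes the 3 members lower at 3 months became 1 with TMM, DESeq2 size factors, the authors' RPM, without the 5 most abundant or at a ratio of 4. At 3 months the 4 members higher in SI-Exos became 1 under those same 5 settings, and the 2 lower became 4 with the authors' RPM, 3 with TMM, DESeq2 size factors or without the 5 most abundant and 1 at a ratio of 4. At 18 months the 2 higher became 1 with the authors' RPM or with 50 reads required and 3 without the 5 most abundant, at a ratio of 1.5 or with known miRNAs alone, and the 3 lower became 5 with the authors' RPM and 4 with TMM.

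The summed 5p ratio of 3 over 18 months moved from 1.13 to 3.13 in SI-Exos with the authors' RPM, and from 0.486 in serum exosomes to 0.538 with the authors' RPM and 0.637 without the 5 most abundant. The summed 3p ratio moved from 0.0718 in SI-Exos to 0.199 with the authors' RPM and 0.0647 without the 5 most abundant, and from 1.12 in serum exosomes to 1.47 without the 5 most abundant.

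At 3 months the ratio of SI-Exos over serum exosomes of miR-30a-3p was 0.996 with TMM (interval 0.780 to 1.27, no longer called), and with the authors' RPM it reversed for miR-30a-3p (0.429), miR-30b-5p (0.672) and miR-30c-5p (0.599). Adding up near-identical members moved the 3p to 5p odds ratio of miR-30a to 0.0577 by age in SI-Exos, 2.15 by age in serum exosomes, and 178 and 6641 between sources at 3 and 18 months. For miR-30e it reversed the age difference in SI-Exos to 0.0577 and gave 6641 between sources at 18 months. The share of the leading 5p sequence in serum exosomes became 94.0% and 87.7% when miR-30d-5p was added to miR-30a-5p and miR-30e-5p.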
